A study of Mus musculus with 4 samples.

Results

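Lung RNA of mice that had breathed mainstream cigarette smoke for 4 weeks was set against lung RNA of mice kept in clean air over the same 4 weeks. The comparison takes the 2 arrays whose titles name the 4-week smoke and the 4-week control group, out of 4 arrays in the series. The other pair, taken after 2 weeks, is given beside it. For each gene the difference is log2 of the signal in smoke minus log2 of the signal in clean air, on the array feature with the highest mean of those with 1 gene symbol. That gave 30142 genes, of which 18084 lay above an expression floor set at the 40th percentile of mean signal over the arrays (56.3 on the linear scale), and 12581 of these were annotated as protein coding. The mean includes the smoke pools, so a gene below 56.3 in both control pools can still pass the floor.

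All animals were male C57BL mice, an inbred laboratory strain, with no allele or agent named in the labels other than the smoke. They were 10 weeks old when exposure began. Sessions lasted 1 h per day on 5 days per week, and the age at death was 12 or 14 weeks. Lungs were pooled by group: 5 mice each for the 2-week control, the 2-week smoke and the 4-week control array, and 4 mice for the 4-week smoke array. Each group is therefore 1 pool on 1 array with no replicate, no p-value is given, and the words higher and lower describe these pools. The spread between animals cannot be seen, and the number of arrays limits the precision. The difference between the control pools (4 weeks minus 2 weeks, SD 0.276 on the log2 scale over the 18084 genes) is the only measure of how far pools without smoke lay apart, and it includes 2 weeks of age.

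The signal is the authors' RMA value on a linear scale, without units, and levels of different genes are not set against each other. The 4 arrays had medians of 58.8 to 61.7. Defining lung markers were present in all 4 pools: the surfactant gene Sftpc read 473797 and 478663 in the control pools and 478659 and 512830.0 in the smoke pools, and the alveolar type 1 marker Ager read 58252 and 67730.1 in air and 58739 and 63232 in smoke. Throughout, a pair of signals gives the 2-week pool first and the 4-week pool second. A single difference is that at 4 weeks unless 2 weeks is named. All folds assume that the linear values were made with base 2, since no source used here gives the base. If it was e, the printed log2 differences shrink to 0.69 of their size.

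Inhaled smoke particles are cleared mainly by alveolar macrophages, which engulf them, digest them in acid lysosomes and secrete chemokines that draw further leukocytes into the airspace. The elastin-degrading protease Mmp12 and the collagen-degrading cathepsin K are products of such macrophages, and in mice lacking Mmp12 long smoke exposure is known to cause little emphysema. Smoke constituents are also sensed by the aryl hydrocarbon receptor (AHR) and by NRF2, which drive genes for detoxification and glutathione synthesis.

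After 4 weeks, 458 of the 18084 genes (2.53%) were at least 1.5-fold higher in the smoke pool and 272 (1.5%) were at least 1.5-fold lower. Among protein-coding genes the counts were 293 higher (2.33%) and 209 lower (1.66%). The median difference over all genes was -0.02. Larger differences lay mostly on the higher side: 114 genes were at least 2-fold higher against 44 lower, 29 at least 4-fold higher against 3 lower, and 7 at least 8-fold higher against 0 lower. The control pools differed at least 1.5-fold from each other in 740 genes (4.09%), 334 higher (1.85%) and 406 lower (2.25%) at 4 weeks, against 730 (4.04%) between smoke and control at 4 weeks. Among protein-coding genes the control pools differed upwards in 248 (1.97%) and downwards in 19 (0.151%) at 4 weeks against 2 weeks.

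Protein-coding and other genes stood differently towards the 2-week arrays. Of the 293 protein-coding genes that were higher, 192 (65.5%) were also at least 1.5-fold higher at 2 weeks, which is 68.8% of the 279 that were higher then (2.22% of those measured). The 2 comparisons share no array. In 284 of the 293, both smoke pools lay above both control pools. The picking rule already places the 4-week smoke pool above the 4-week control pool. Such counts among picked genes, here and below, are therefore partly fixed by the rule. With the 2-week control pool in place of the 4-week one and the same smoke pool, 266 of the 293 (90.8%) were past 1.5-fold, among 569 in all (4.52% of those measured). Of the 209 lower genes, 53 (25.4%) were at least 1.5-fold lower at 2 weeks, which is 74.6% of the 71 that were lower then (0.564% of those measured), and 165 had both smoke pools below both control pools. With the 2-week control pool in its place 88 of the 209 (42.1%) were past 1.5-fold, among 209 in all. With the noncoding and unannotated genes included, 205 of the 458 higher genes (44.8%) and 61 of the 272 lower ones (22.4%) were past 1.5-fold the same way at 2 weeks, and 10 and 5 were past it the opposite way. Against the 2-week control pool 316 (69%) and 120 (44.1%) were past it. Over all 18084 genes, 329 (1.82%) were higher and 220 (1.22%) lower at 2 weeks. Being past 1.5-fold at 4 weeks with the smoke pools apart from the control pools held for 342 higher genes (1.89%) and 202 lower ones (1.12%). Whatever the size of the difference, both smoke pools lay above both control pools for 15.7% and below them for 16.8%.

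**Figure D1:**
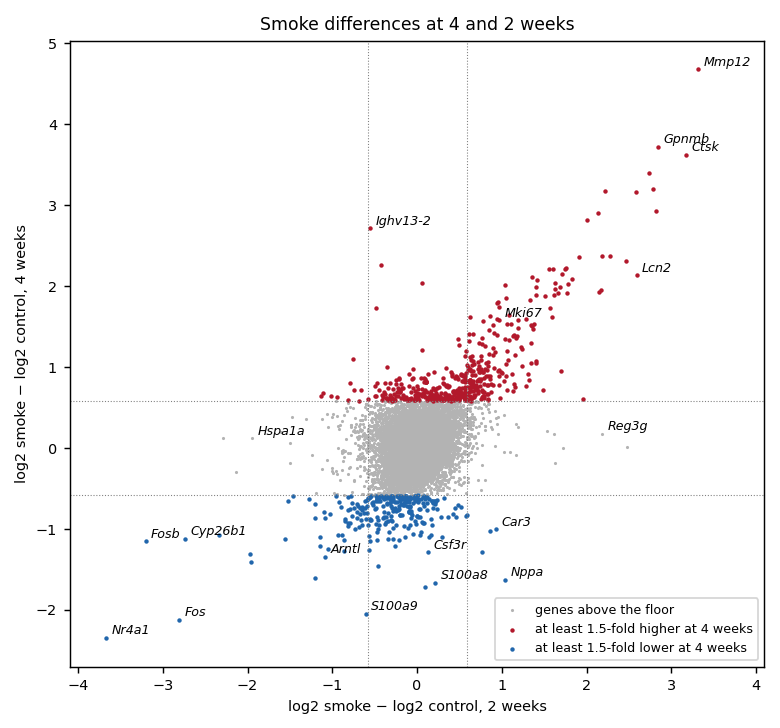
Each point is 1 of the 18084 genes above the floor, with its log2 smoke minus control difference at 2 weeks on the x axis and at 4 weeks on the y axis; red and blue mark genes at least 1.5-fold higher or lower at 4 weeks and dotted lines mark 1.5-fold. The largest differences lie far up and to the right, ending at Mmp12 (4.68 at 4 weeks and 3.32 at 2 weeks). At 2 weeks 97 of the 458 red genes and 58 of the 272 blue ones had the other sign, such as Ighv13-2 (2.72 and -0.55) and Nppa (-1.62 and 1.04).

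The gene with the largest difference was Mmp12, the macrophage protease named above. It read 84.2 and 73.0 in the control pools and 839 and 1873 in the smoke pools, which is 4.68 or 25.7-fold at 4 weeks and 3.32 at 2 weeks. Both smoke pools were far above both control pools, and the 4-week smoke pool was the highest. Gpnmb, a transmembrane glycoprotein of lysosome-rich macrophages, read 243 and 310.4 in control and 1739 and 4093 in smoke, a difference of 3.72. Ctsk, which encodes cathepsin K, read 319 and 339 in air and 2873 and 4184 in smoke, a difference of 3.63. None of these 3 genes had overlapping smoke and control pools.

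Slc26a4 encodes pendrin, an anion exchanger of the airway epithelium. Its signal was 98.3 and 100.2 in control and 658 and 1053 in smoke (3.39). Ccl17, a chemokine that attracts CCR4-bearing T cells, read 821 and 1031 in air and 5649 and 9446 in smoke (3.20). Marco, a scavenger receptor that binds particles and bacteria, read 459.6 and 509 in air and 2139 and 4588 in smoke (3.17). Vnn1, a pantetheinase that releases cysteamine, read 314 and 339.9 in air and 1887 and 3051 in smoke (3.17). In each of these the order of the pools was the same, with the 4-week smoke pool highest, the 2-week smoke pool next and the control pools close together at the bottom.

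The remaining 13 of the 20 protein-coding genes with the largest differences were Cxcr1, Saa3, Wfdc17, Clec5a, Cd68, Ch25h, Retnla, Lilrb4a, Cd177, Ccl9, Slc6a20a, Itgax and Lcn2, with differences from 2.92 for the chemokine receptor Cxcr1 down to 2.14 for the siderophore-binding protein Lcn2. Cxcr1 lay below the floor in both control pools, which makes the size of its difference uncertain. All 20 were also at least 1.5-fold higher at 2 weeks. For 18 of the 20 the 4-week difference was the larger one. The exceptions were Retnla, a secreted protein of alternatively activated macrophages (2.32 at 4 weeks and 2.46 at 2 weeks), and Lcn2 (2.14 and 2.59). In both, the 4-week smoke pool was nevertheless the highest of the 4 pools, and the 4-week control pool was above the 2-week one.

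On the lower side the orphan nuclear receptor Nr4a1 led. It read 14441 and 4907 in control and 1133 and 964 in smoke, a difference of -2.35 at 4 weeks and -3.67 at 2 weeks. The smoke pools lay close together, and the control pools were -1.56 apart, the 4-week one being the lower. Fos, an AP-1 subunit, read 7319 and 4486 in air and 1045 and 1034 in smoke, a difference of -2.12. Further down the list came genes of other kinds: S100a9 and S100a8 (subunits of the neutrophil protein calprotectin), Stfa2l1 (a stefin), Nppa (atrial natriuretic peptide), Scgb1c1 (a secretoglobin), Ccn1 (a matricellular protein) and Arntl (the clock factor BMAL1), at -2.05, -1.66, -1.71, -1.62, -1.61, -1.40 and -1.34. The other genes among the lowest 20 were Egr1, Csf3r, Cpne5, Igfbp3, Csrnp1, Il1b, Adamts1, Npas2, Fosb, Pdk4 and 9330159F19Rik, from -1.31 to -1.14.

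**Figure D2:**
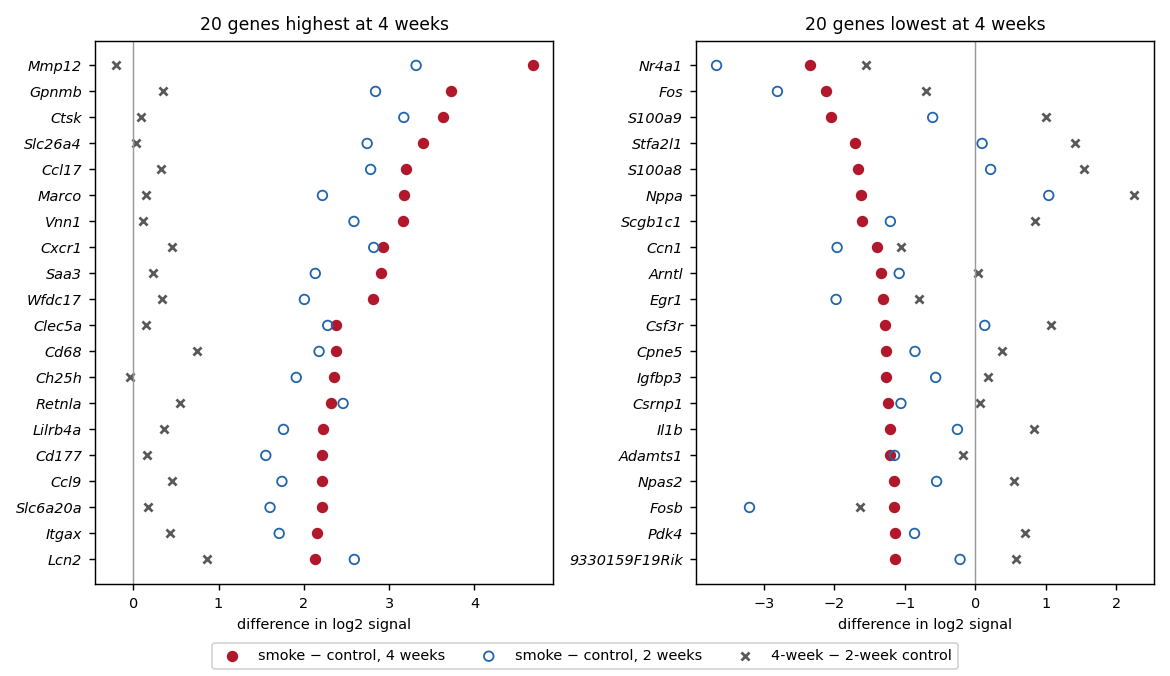
Differences in log2 signal (x axis) for the 20 protein-coding genes highest (left) and lowest (right) at 4 weeks: filled red points are smoke minus control at 4 weeks, open blue points the same at 2 weeks, and grey crosses the 4-week minus the 2-week control pool. On the left the crosses reach 0.87 at most and the open points start at 1.55, whereas on the right crosses run from -1.64 for Fosb to 2.24 for Nppa and several open points lie near 0.

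**Figure D3:**
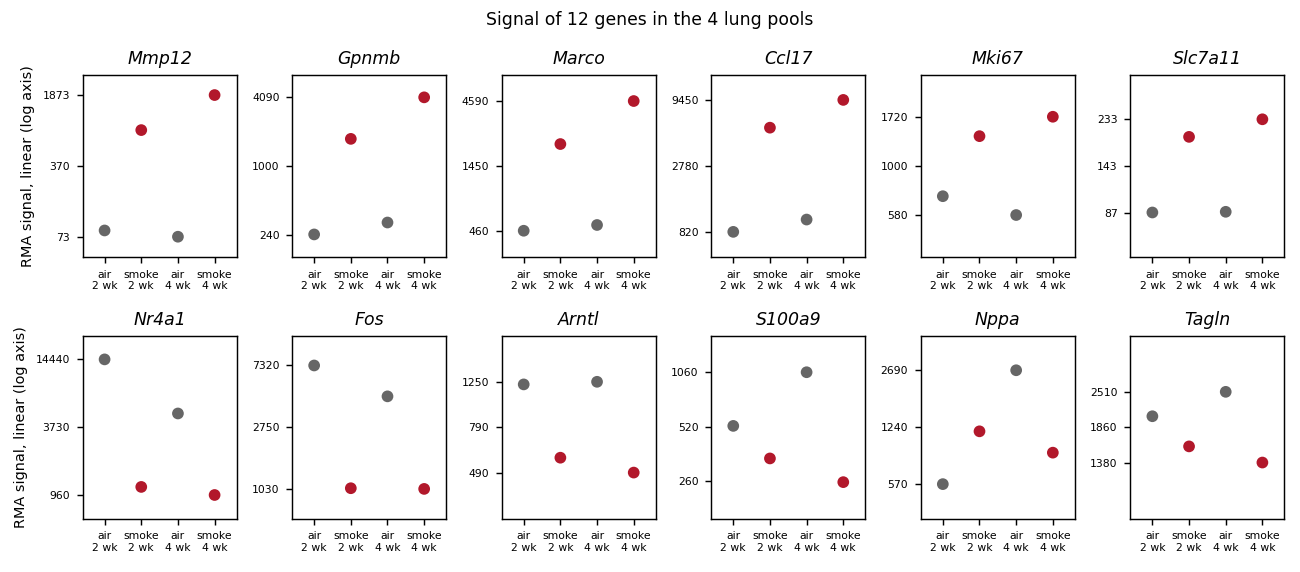
Linear RMA signal (log axis, range set per gene) of 12 genes in the 4 lung pools, grey for clean air and red for smoke, with 1 point per pool. In the upper row both smoke points lie above both grey points; in the lower row they lie below both for Nr4a1, Fos, Arntl, S100a9 and Tagln, while for Nppa the 2-week smoke point (1168) lies above the 2-week control point (568).

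Genes for proteases that act on the matrix were higher in a few members only. Of 14 matrix metalloproteinases and their inhibitors above the floor, 4 were at least 1.5-fold higher and 1 lower, with a median of 0.09. After Mmp12 came Mmp2, the gelatinase of stromal cells, at 2793 and 3063 in control and 4947 and 5969 in smoke (0.96). The neutrophil collagenase Mmp8 read 85.6 and 139.8 in air and 214 and 251 in smoke (0.84), and the inhibitor Timp1 read 86.9 and 100.5 in air and 148 and 165 in smoke (0.71). Mmp9, the gelatinase of neutrophils and macrophages, was the lower one, with 87.7 and 128 in control and 67.5 and 66.8 in smoke (-0.93). Members of the group thus lay on both sides. The promoter of Mmp12 is shown because the gene leads the comparison and carries an AP-1 site. Of its 2 windows in the RefSeq table (GRCm38.p6, 250 bases before to 50 after a start), the one at chr9:7347124-7347423 on the plus strand holds TGAGTCA with its first base at position -44 from the start, in capitals here:
Mmp12: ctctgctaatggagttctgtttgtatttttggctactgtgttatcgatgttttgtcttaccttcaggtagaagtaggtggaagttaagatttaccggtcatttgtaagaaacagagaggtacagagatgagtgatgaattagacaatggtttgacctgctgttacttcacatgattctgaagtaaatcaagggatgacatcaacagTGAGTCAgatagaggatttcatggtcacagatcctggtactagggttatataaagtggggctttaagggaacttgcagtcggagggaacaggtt
The same 7 letters, searched on both strands, were in 2 of 13 windows of this gene group (15.4%, Mmp12 and Mmp3) and in 5.2% of all 32851 windows. A match is a description of the letters only.

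Lysosomal proteases formed a broader group. Of 15 cathepsins and cystatins, 8 were at least 1.5-fold higher and 0 lower, and the median was 0.61 against 0.46 at 2 weeks. Cathepsin S (Ctss), which cleaves the invariant chain of MHC class II, read 15047 and 13092 in control and 25026 and 32238 in smoke (1.30). Ctsz read 4505 and 5132 in air and 6931 and 11221 in smoke (1.13), and Ctsc, the activator of granule serine proteases, 23332 and 21269.8 in air and 32396 and 39170.2 in smoke (0.88). The protease inhibitor Cstb (cystatin B) was higher with them (0.94), as were Lgmn, Ctsb and Ctsa (0.63, 0.62 and 0.61). For all 8 genes both smoke pools lay above both control pools.

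Membrane proteins of the acid compartment differed by smaller amounts. All 27 genes of the vacuolar proton pump and lysosomal membrane had a positive difference, with a median of 0.28, and 5 passed 1.5-fold. These were Cd68, a lysosomal glycoprotein of macrophages (1111 and 1869.8 in control, 5031 and 9677 in smoke, 2.37), Atp6v0d2, a pump subunit of osteoclasts and macrophages (2.10), the calcium channel Mcoln3 (2.03), the transcription factor Tfec (1.09) and the pump subunit Atp6v1c1 (0.66). Of 25 lysosomal hydrolases and their activators, 6 passed 1.5-fold upwards and 0 downwards, with a median of 0.25 (0.65 against the 2-week control pool). Acp5, the tartrate-resistant acid phosphatase, was the furthest out (216 and 246 in air and 402 and 582 in smoke, 1.24), followed by Gla, Psap and Lipa (0.90, 0.84 and 0.83). Lipa encodes the acid lipase that frees cholesterol from lipoproteins, and it read 10757 and 11636 in control and 15672 and 20747 in smoke.

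Promoters of these lysosomal groups were searched for the M-box TCATGTG, bound by MITF and TFEC family factors, and for the E-box CACGTG. The M-box was in 5 of 25 windows of the hydrolases (20%: Acp5, Gla, Ppt1, Scarb2 and Tpp1) and in 3.77% of all windows. The E-box was in 7 of 28 windows of the pump and membrane genes (25%) and in 7.15% of all windows. The other 2 searches gave the M-box in 1 of 28 windows of the pump and membrane genes (3.57%) and the E-box in 3 of 25 windows of the hydrolases (12%). The M-box was in 0 of 16 windows of the lipid-handling macrophage genes described next. The window of Acp5 with the match, 1 of 3 in the table, lies at chr9:22130549-22130848 on the minus strand of GRCm38.p6 and shows it in capitals on the reverse strand, as CACATGA, from position -90:
Acp5: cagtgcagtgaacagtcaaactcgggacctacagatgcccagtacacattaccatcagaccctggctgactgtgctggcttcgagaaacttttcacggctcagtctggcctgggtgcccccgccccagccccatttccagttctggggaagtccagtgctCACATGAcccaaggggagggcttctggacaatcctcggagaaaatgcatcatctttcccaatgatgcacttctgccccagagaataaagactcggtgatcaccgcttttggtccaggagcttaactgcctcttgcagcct

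Genes of lipid-laden macrophages were higher together with the lysosomal ones. Of 19 such genes, 10 passed 1.5-fold upwards and 0 downwards, and the median was 0.59. After Gpnmb came Olr1, the receptor for oxidised LDL, with 737 and 829 in control and 2508 and 3139.7 in smoke (1.92), and the scavenger receptor Msr1, with 79.2 and 81.9 in air and 226 and 301 in smoke (1.88). Trem2, a lipid-sensing receptor, and its signalling partner Tyrobp were 1.09 and 1.38 higher. The cholesterol exporter Abcg1 (0.87), the fatty acid carrier Fabp5 (0.84), the lectin Lgals3 (0.91) and the lipid droplet coat Plin2 (0.59) made up the rest with Lipa. Plin2 read 9239 and 10814 in control and 10877 and 16272 in smoke, so that only the 4-week smoke pool stood clear of the others. In whole lung, more macrophages and more RNA per macrophage cannot be told apart. Markers of alveolar macrophages had 7 of 16 at least 1.5-fold higher and 2 lower (median 0.42). Their summed signal was 37038 and 44061 in the control pools and 79172 and 105749 in the smoke pools. Among the higher ones Ctsk, Cd68, Atp6v0d2, Marco, Mrc1 and Itgax are also members of other groups in this report. These genes are counted again here, and the part of the markers in the results was not tested. The 2 lower ones were Fabp1 (-0.90 at 4 weeks and -0.85 at 2 weeks) and the droplet protein Cidec (-0.92), while the alveolar macrophage lectin Siglecf was at 298 and 357 in air and 272 and 391 in smoke (0.13). Markers of monocytes and interstitial macrophages had 7 of 20 higher and 0 lower (median 0.26), led by Ms4a7 (1.64). Their summed signal was lower in smoke at both durations, 169086 and 219724 in the control pools and 161089 and 196243 in the smoke pools, and most of it came from Lyve1, which lymphatic vessels also express, and Ly6c2. The other 18 summed to 13446 and 14969.8 in the control pools and 15441 and 19096 in the smoke pools.

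Among receptors by which phagocytes recognise particles and microbes, the members past 1.5-fold were all higher. Of 14 scavenger receptors, 4 passed 1.5-fold upwards (Marco, Olr1, Msr1 and the mannose receptor Mrc1 at 0.97) and 0 downwards, with a median of 0.17. In all, 5 of the 14 had a negative difference. Of 16 C-type lectin receptors, 3 passed upwards and 0 downwards, against 6 and 0 at 2 weeks. Their median was 0.20 at 4 weeks and 0.38 at 2 weeks. Clec7a (dectin-1, a receptor for fungal glucan) read 3346 and 3063 in control and 8837 and 11385 in smoke (1.89), Clec4n (dectin-2) 341 and 329 in air and 872 and 1420.2 in smoke (2.11), and Clec5a 94.7 and 105 in air and 459.9 and 547 in smoke (2.38). Among 25 genes of pattern recognition and inflammasomes 7 were higher and 0 lower, and 23 had a positive difference. They were the LPS co-receptor Cd14 (1.04), the Toll-like receptors Tlr2, Tlr7 and Tlr13 (0.91, 0.89 and 0.60), Naip5 and Naip6 (0.70 and 0.70) and Casp1 (0.65). Naip5 and Naip6 are close paralogs that the probes may not separate.

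Fc receptors with their adaptors, and complement, gave 6 of 11 and 8 of 19 genes at least 1.5-fold higher and 0 lower, with medians of 0.62 and 0.37. Tyrobp, named above, is counted again among the 6. Pigr, the epithelial receptor that carries IgA into the airway lumen, read 3527 and 3937 in control and 9424 and 16646 in smoke (2.08). The common signalling chain Fcer1g read 546 and 1482 in air and 1764 and 2863 in smoke (0.95), and here the 4-week control pool was well above the 2-week one (1.44). The IgG receptors Fcgr2b, Fcgr3 and Fcgr4 were 0.92, 0.89 and 0.62 higher. In the complement group Cfb, factor B of the alternative pathway, read 509 and 609.7 in control and 1058 and 2199.5 in smoke (1.85). The 3 chains of C1q were higher as well, C1qc by 1.36, C1qb by 1.33 and C1qa by 0.70, as was the anaphylatoxin receptor C3ar1 (1.49). Set against the 2-week control pool, the median of the complement group was 0.78.

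Adhesion molecules of leukocytes had 4 of 18 members higher and 0 lower. Itgax, the CD11c chain of alveolar macrophages and dendritic cells, read 845 and 1141 in control and 2767 and 5086 in smoke (2.16). The shared beta chain Itgb2 read 2067 and 2790.4 in air and 5377 and 8056 in smoke (1.53), and the alpha chains Itgae and Itgam were 1.05 and 0.66 higher. Itgax and Itgam were also counted in the complement group. For Itgax and Itgb2 the 4-week smoke pool was the highest and both control pools were the lowest.

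Among the ligands, CC chemokines had the highest median of the 74 gene groups examined at this floor. Of 13 above the floor, 7 were at least 1.5-fold higher and 0 lower, with a median of 1.03 at 4 weeks and 0.58 at 2 weeks. The 4-week median was 0.51 with no floor and 1.73 with a floor at the 60th percentile. Ccl22, which like Ccl17 binds CCR4, read 119.6 and 131 in control and 355 and 435 in smoke (1.73). The CCR1 ligand Ccl9 read 636 and 870.4 in air and 2129 and 4039 in smoke, and Ccl6 read 4034 and 4591 in air and 12386 and 17039.8 in smoke. Ccl3 (1.99) and the monocyte attractants Ccl2 (1.03) and Ccl12 (1.20) were also higher, and for all 3 the 4-week difference exceeded the 2-week one (1.40, 0.59 and 0.58).

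CXC chemokines had 5 of 12 members higher and 1 lower (median 0.44). Cxcl17, made by airway epithelium, read 2700.3 and 4597 in control and 6836 and 9555 in smoke (1.06). The B cell attractant Cxcl13 was 1.03 higher, the neutrophil attractants Cxcl5 and Cxcl2 0.94 and 0.90, and the interferon-inducible Cxcl9 1.36. Cxcl2 read 47.2 and 45.2 in control and 62.7 and 84.1 in smoke. Cxcl9 read 35.4 and 41.8 in air and 79.8 and 107 in smoke. In the control pools Cxcl2 and Cxcl9 lay below the expression floor, which they passed only through the smoke pools. The size of their differences is therefore uncertain. The lower member was the platelet chemokine Ppbp, with 829.6 and 1259.5 in control and 1017 and 590.5 in smoke (-1.09 at 4 weeks and 0.29 at 2 weeks). Of 12 chemokine receptors 2 were higher, Cxcr1 (38.5 and 52.8 in air and 272 and 400.4 in smoke) and the fractalkine receptor Cx3cr1 (0.87), and 1 was lower, the neutrophil receptor Cxcr2 (289.6 and 477 in air and 293 and 265 in smoke, -0.85). Cxcr1 and Cxcr2 bind overlapping ligands, and at 4 weeks they lay on opposite sides. Cxcr1 too lay below the floor in both control pools, so the size of its difference is uncertain. For Cxcr2 the 4-week control pool was the one apart, and the difference at 2 weeks was 0.01.

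Cytokine genes were divided. In the IL-1 and IL-18 group 3 of 14 were higher and 1 lower. Il1a read 284 and 217 in control and 544 and 749.6 in smoke (1.79), and the receptor antagonist Il1rn 179 and 259 in air and 454 and 638 in smoke (1.30). Il1b read 414 and 739.7 in air and 347 and 319 in smoke (-1.21 at 4 weeks, -0.26 at 2 weeks), so that the smoke pools were the lower ones for Il1b and the higher ones for Il1a. For Il1b the 4-week control pool was the one apart. Against the 2-week control pool its difference was -0.38, short of 1.5-fold. In the TNF family 4 of 17 were higher (Tnf at 0.94, Tnfrsf9 at 0.98, Tnfrsf23 at 0.78 and Tnfrsf26 at 1.43) and 1 was lower, the TWEAK receptor Tnfrsf12a (-0.72). Tnfrsf9 read 44.3 and 44.5 in air and passed the floor only through the smoke pools, so the size of its difference is uncertain.

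Cytokine and growth factor receptors, listed with the colony-stimulating factors, had 3 of 16 members higher and 1 lower, with a median of 0.20. All 4 belong to the colony-stimulating factors of myeloid growth or their receptors. GM-CSF (Csf2), which alveolar macrophages need to mature, read 71.4 and 77.8 in control and 216 and 240.1 in smoke (1.63). Its receptor chain Csf2ra read 944 and 1701 in air and 2489.8 and 3587 in smoke (1.08), and M-CSF (Csf1) 629 and 713 in air and 1028 and 1269 in smoke (0.83). The G-CSF receptor of neutrophils, Csf3r, was lower, with 333 and 697 in control and 365 and 285 in smoke (-1.29). Its 3 other pools lay between 285 and 365, and the 4-week control pool was the one apart, at 697.

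Antigen presentation by MHC class II was higher to a similar degree at both durations. Of 11 genes 5 passed 1.5-fold upwards at 4 weeks and 6 at 2 weeks, with medians of 0.58 and 0.60. H2-Ab1, a beta chain of class II, read 18542 and 23808 in control and 33104 and 40921 in smoke (0.78), and H2-Eb1 1992 and 2896 in air and 3705 and 4958 in smoke (0.78). The co-stimulatory ligands Cd80 and Cd86 were 1.03 and 0.82 higher, and the peptide-loading chain H2-DMb1 0.60. MHC class I genes had 0 of 14 past 1.5-fold in either direction, with a median of 0.11. The share over all genes was 4.04%, so that count says little. Interferon-stimulated genes had 2 of 24 higher, Oas1a at 0.94 and Irf7 at 0.65, and 20 of 24 positive, with a median of 0.31 against 0.18 at 2 weeks. Dendritic cell markers had 3 of 14 higher (Ccl22, Itgae and the migratory marker Fscn1 at 0.79) and 0 lower.

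Cell division genes were higher in smoke at 4 weeks almost throughout the group. Of 25 mitotic genes above the floor 12 passed 1.5-fold upwards and 0 downwards, with a median of 0.58, and in 24 of 25 both smoke pools lay above both control pools. At 2 weeks 4 of 25 passed and the median was 0.31. Mki67, the proliferation antigen Ki-67, read 711 and 577 in control and 1388 and 1722 in smoke (1.58). Topoisomerase Top2a, which untangles chromosomes before they separate, read 238 and 219.7 in air and 378 and 463 in smoke (1.08), the spindle motor Kif11 231 and 211 in air and 359.7 and 407 in smoke (0.95), and cyclin A (Ccna2) 161 and 160.1 in air and 232 and 268 in smoke (0.74). Nuf2, Plk1, Tpx2, Hmmr, Bub1b, Prc1, Nusap1 and Ndc80, which build or watch over the spindle, were 0.81, 0.79, 0.75, 0.69, 0.62, 0.61, 0.60 and 0.59 higher. Some of these lay not far above the floor in the control pools, such as Nuf2 (73.8 and 61.3). Genes of DNA replication had 2 of 27 past 1.5-fold, E2f8 (0.91) and the ribonucleotide reductase subunit Rrm2 (0.90), a median of 0.22 and 24 positive differences. E2f8 (69.9 and 67.5 in air) and Rrm2 (79.0 and 83.1 in air) also lay not far above the floor. Which cells divided cannot be read from whole lung.

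Promoters of mitotic genes are shown because CCAAT boxes, bound by NF-Y, are a known feature of this group. In the RefSeq table (GRCm38.p6) 18 of 23 windows of the mitotic genes (78.3%) held CCAAT on either strand, against 37.4% of all 32851 windows. For MHC class II it was 6 of 8 windows (75%). The windows of Top2a (chr11:99024140-99024439, minus strand) and Mki67 (chr7:135716330-135716629, minus strand) held 6 and 3 matches, shown in capitals as CCAAT or, on the reverse strand, ATTGG:
Top2a: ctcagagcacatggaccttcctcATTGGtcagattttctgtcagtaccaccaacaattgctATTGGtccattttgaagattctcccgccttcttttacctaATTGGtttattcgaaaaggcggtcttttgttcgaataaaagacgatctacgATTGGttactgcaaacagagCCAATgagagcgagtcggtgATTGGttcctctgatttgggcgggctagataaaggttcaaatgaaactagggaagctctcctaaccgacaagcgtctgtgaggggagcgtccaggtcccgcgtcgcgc
Mki67: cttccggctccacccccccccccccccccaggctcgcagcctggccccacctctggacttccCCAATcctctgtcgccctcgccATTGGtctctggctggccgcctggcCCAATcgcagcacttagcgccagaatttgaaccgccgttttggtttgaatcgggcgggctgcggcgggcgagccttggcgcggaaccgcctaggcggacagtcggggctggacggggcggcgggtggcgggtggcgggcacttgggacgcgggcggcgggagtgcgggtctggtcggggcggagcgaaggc
In Top2a the matches start 227, 189, 149, 98, 78 and 58 bases before the transcription start, and in Mki67 188, 166 and 141 bases before it.

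**Figure D4:**
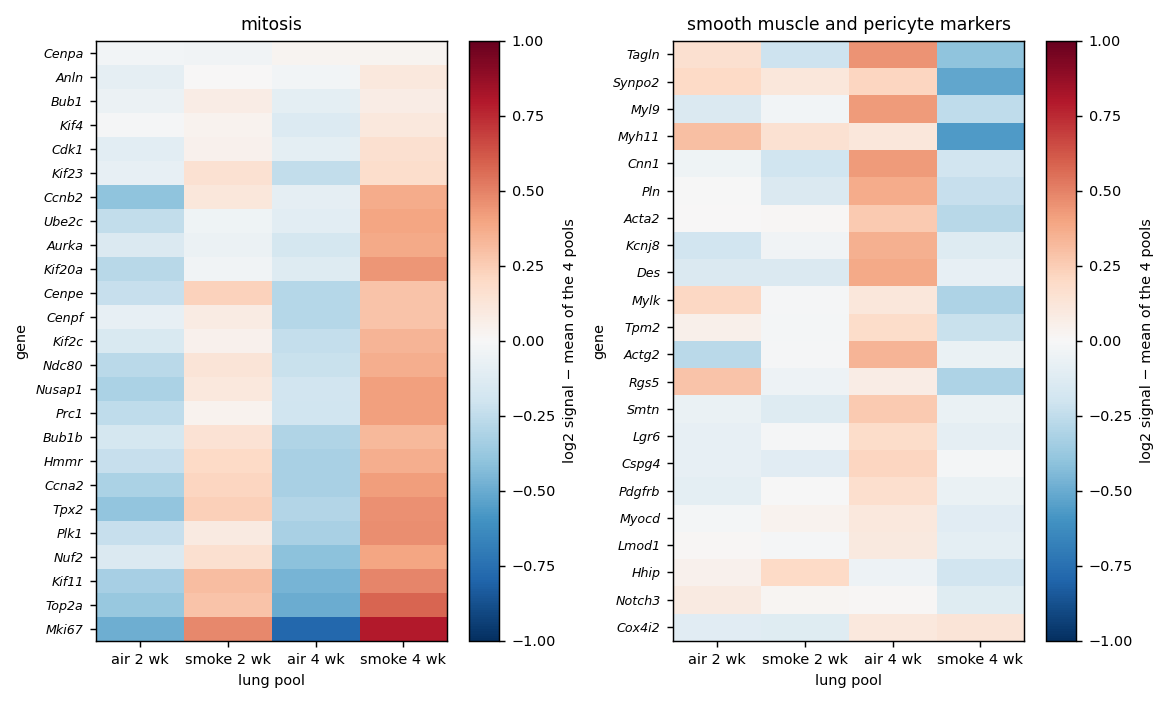
Log2 signal minus the mean of the 4 pools (colour, red above and blue below) for the 25 mitotic genes and the 22 smooth muscle and pericyte markers above the floor (rows), in each of the 4 lung pools (columns). Nearly all mitotic genes are reddest in the 4-week smoke column (Mki67, 1722 against 577 in its control), while most smooth muscle markers are reddest in the 4-week control column and bluest in the 4-week smoke column (Tagln, 2507 and 1385).

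Immediate early transcription factors, which cells induce within minutes of a stimulus, had the most lower members of the 74 groups. Of 25 above the floor 15 were at least 1.5-fold lower and 0 higher, with a median of -0.65 at 4 weeks and -0.79 at 2 weeks. In 20 of 25 both smoke pools lay below both control pools. Between the control pools, 5 of the 25 were at least 1.5-fold lower and 1 higher at 4 weeks. For all protein-coding genes these shares were 0.151% and 1.97%. With the 2-week control pool in place of the 4-week one, 13 of the 25 were lower and 0 higher (median -0.67). Egr1, a zinc finger factor, read 2009 and 1155 in control and 511 and 465 in smoke (-1.31). Jun, the partner of Fos, read 10523 and 8747 in air and 5992 and 4588 in smoke (-0.93), and the mRNA decay factor Zfp36 7171 and 9365 in air and 3889.5 and 4461 in smoke (-1.07). Fosb read 877 and 281 in air and 95.1 and 127 in smoke, and its difference was smaller at 4 weeks (-1.15) than at 2 weeks (-3.20), with a 4-week control pool -1.64 from the 2-week one. The nuclear receptors Nr4a2 and Nr4a3 (-0.80 and -0.65), the Krueppel-like factors Klf4, Klf2 and Klf10 (-0.96, -0.95 and -0.77) and Btg2, Ier2, Fosl2 and Srf (-1.07, -0.87, -0.60 and -0.59) were the other members past 1.5-fold. Promoter windows of these genes held the cyclic AMP response element TGACGTCA in 2 of 26 (Btg2 and Maff; 1.79% of all windows) and the AP-1 site in 0 of 26.

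Growth factor feedback genes and matricellular genes were lower in part. Of 16 feedback inhibitors of the ERK kinases 6 were at least 1.5-fold lower and 0 higher (median -0.47). The phosphatase Dusp6 read 3813 and 5248 in control and 2606 and 2832 in smoke (-0.89), Spry4 545 and 708 in air and 459 and 366 in smoke (-0.95), and the EGF receptor inhibitor Errfi1 10563 and 9273 in air and 4972 and 5097 in smoke (-0.86). Dusp8, Dusp1 and Spred2 were at -0.87, -0.68 and -0.59. Of 17 CCN proteins and YAP targets 5 were lower and 0 higher (median -0.29). Ccn1 read 62552 and 30024 in control and 16053 and 11355 in smoke, tissue factor (F3) 2604 and 2737 in air and 1855 and 1429 in smoke (-0.94), and Ccn2, Thbs1 and Ccn3 were at -0.65, -0.60 and -0.59. Among ADAM and ADAMTS proteases 4 of 17 were lower (Adamts1 at -1.21, Adamts15 at -0.92, Adamts5 at -0.67 and Adamts9 at -0.63) and 1 was higher, the leukocyte protease Adam8 (0.75).

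Clock genes differed in both directions. Of 15 core clock genes 2 were higher and 4 lower (median -0.18). The lower ones were Arntl, Npas2, Per1 and Rora. Arntl read 1218 and 1251 in control and 576 and 494 in smoke (-1.34), and Npas2, a partner of BMAL1, 468 and 686 in air and 319.7 and 309 in smoke (-1.15). The repressor Bhlhe41 read 352 and 325 in air and 664 and 739 in smoke (1.18), Per3 was 0.62 higher, and the output factor Dbp read 1177 and 1310.4 in control and 2554 and 2471 in smoke (0.92). Per1, a repressor, was at -0.69 and Rora at -0.61. The 4-week smoke pool of Per1 (2605) was slightly above its 2-week control pool (2479). The labels place the exposure in the morning, and no source used here gives the hour at which the lungs were taken. Genes of the glucocorticoid and fasting response had 5 of 18 lower, among them Pdk4 (1555 and 2521 in air and 855 and 1144 in smoke, -1.14), Klf9 (-0.95) and Cdkn1a (-0.80), and 1 higher, Lcn2. Their median was -0.29 against the 4-week control pool and 0.15 against the 2-week one. In the control pools alone, 9 of 18 were at least 1.5-fold higher at 4 weeks.

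The pathways that sense smoke chemicals differed in single genes. Of 7 AHR pathway genes above the floor, 1 was at least 1.5-fold higher and 1 lower. Cyp1b1 read 269 and 279 in control and 555 and 516 in smoke (0.89). Cyp1a1 went the other way, with 378 and 387 in air and 74.5 and 184 in smoke (-1.07 at 4 weeks and -2.34 at 2 weeks). Both are classical AHR targets, and in neither did the smoke and control pools overlap. Their promoters are shown because they share the core GCGTG of the AHR response element while their signals lay on opposite sides. The core, searched on both strands, was in 4 of 5 windows of the pathway (80%) and in 32.4% of all 32851 windows of the RefSeq table (GRCm38.p6). It is in capitals, as CACGC on the reverse strand at -76 in Cyp1b1 (chr17:79715012-79715311, minus strand) and as GCGTG at -54 in Cyp1a1 (chr9:57697363-57697662, plus strand):
Cyp1b1: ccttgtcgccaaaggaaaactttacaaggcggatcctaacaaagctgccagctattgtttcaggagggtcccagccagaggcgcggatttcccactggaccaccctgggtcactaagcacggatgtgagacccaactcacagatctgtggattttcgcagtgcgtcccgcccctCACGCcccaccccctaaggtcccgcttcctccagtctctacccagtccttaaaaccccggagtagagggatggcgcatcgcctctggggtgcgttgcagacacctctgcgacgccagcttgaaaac
Cyp1a1: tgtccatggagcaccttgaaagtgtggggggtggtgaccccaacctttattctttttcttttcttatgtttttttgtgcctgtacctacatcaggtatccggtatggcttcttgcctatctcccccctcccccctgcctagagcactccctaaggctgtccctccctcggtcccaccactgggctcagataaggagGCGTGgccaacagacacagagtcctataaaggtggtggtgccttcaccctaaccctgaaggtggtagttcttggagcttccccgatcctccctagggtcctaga

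NRF2 targets and glutathione genes had 1 of 26 members at least 1.5-fold higher and 0 lower, with a median of 0.06. The one was Slc7a11, the cystine importer that feeds glutathione synthesis, with 87.5 and 88.1 in control and 194 and 233 in smoke (1.40). Heme oxygenase Hmox1 read 289 and 339.9 in air and 352 and 464 in smoke (0.45), and the redox protein thioredoxin (Txn1) 4771 and 5319.6 in air and 5431 and 6572 in smoke (0.30), both short of 1.5-fold. Enzymes of carbonyl and phase II detoxification had 2 of 25 lower and 0 higher: the paraoxonase Pon1 read 6426 and 7170.1 in control and 2895 and 3358 in smoke (-1.09), and the sulfotransferase Sult1d1 853 and 1148 in air and 811 and 633 in smoke (-0.86). Akr1b8, an aldo-keto reductase, was at 0.55.

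Of 17 further cytochromes P450 1 was higher, Cyp2a4 (0.61), and 2 were lower, Cyp4a12b (-1.03) and Cyp2e1 (-0.83). Cyp2e1 read 800.4 and 1729 in control and 1203 and 976 in smoke, so that the 4-week control pool alone was high. Of 13 genes of retinoid metabolism 3 were lower and 0 higher. Cyp26b1, which degrades retinoic acid, read 1345 and 980.3 in control and 201 and 452 in smoke (-1.12 at 4 weeks and -2.74 at 2 weeks). Lrat, which stores retinol as esters, read 10559.8 and 8519 in air and 4367 and 5512 in smoke (-0.63 and -1.27). Both were nearer to control at 4 than at 2 weeks. The third, Dhrs9, was at -0.60.

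In the airway and alveolar epithelium, genes past 1.5-fold were few. Slc26a4 and the chloride channel Cftr (539 and 437 in control, 702 and 745 in smoke, 0.77) were the 2 of 15 ion transport genes past 1.5-fold, and 0 were lower. Of 18 alveolar type 2 markers 2 were higher and 0 lower (median 0.11): Sftpd, the collectin surfactant protein D, read 24132 and 21898 in control and 41064 and 53574 in smoke (1.29), and the mucin Muc1 was 0.61 higher. Alveolar type 1 markers had 16 of 18 negative differences with a median of -0.23, and 1 passed 1.5-fold, the anchoring protein Akap5 (20533 and 17779 in air and 16889.5 and 11702 in smoke, -0.60). Ciliated cell markers had 0 of 25 past 1.5-fold and a median of -0.04. With 4.04% of all genes past 1.5-fold either way, a count of 0 here says little.

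Secreted proteins of the airway gave other counts at 4 than at 2 weeks, a difference that was not tested, and the control pools differed as well. In all, 7 of 18 club and goblet cell markers and 9 of 15 antimicrobial genes were at least 1.5-fold higher in the later control pool than in the earlier one. Club and goblet cell markers had 1 of 18 higher and 2 lower at 4 weeks, against 6 higher and 1 lower at 2 weeks. Scgb3a1 read 9996 and 24557 in control and 38977 and 37484 in smoke (0.61 at 4 weeks and 1.96 at 2 weeks), and the 2-week control pool was the low one. Scgb1c1 read 798 and 1438 in air and 346 and 472 in smoke (-1.61), and the mucin Muc16 was at -0.67. Of 15 antimicrobial proteins of epithelium 4 were higher at 4 weeks, led by Saa3, an acute-phase protein (58.7 and 68.9 in control, 258 and 514 in smoke, 2.90), and Lcn2 (1929 and 3522 in air and 11632 and 15481 in smoke), and 2 were lower, S100a8 and S100a9. Their median was 0.18 against the 4-week control pool and 1.29 against the 2-week one. The iron and heme group had 2 of 21 higher, Lcn2 and the metalloreductase Steap4 (302 and 509.8 in air and 1340.0 and 1934 in smoke, 1.92), and 0 lower. The protease inhibitor Serpina3n, an acute-phase serpin, read 8927 and 14180.0 in control and 19893 and 31470.0 in smoke (1.15).

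Matrix genes differed little as a group. Of 22 collagens 1 passed 1.5-fold, Col3a1, which read 3152 and 2764 in control and 4911 and 4773 in smoke (0.79), and 0 were lower. Col1a1 was at 0.53. Among 21 genes of elastic fibres and crosslinking 3 were higher, elastin itself (Eln, 3627 and 3518 in air and 4908 and 5525 in smoke, 0.65), Ltbp2 (0.76) and tenascin C (Tnc, 0.63), and 1 was lower, Mfap2 (-0.65, with 616 and 1233 in control and 694 and 787 in smoke). In the TGF-beta and BMP group 3 of 26 were higher (Id2 at 0.78, Inhba at 0.68 and Tgfbi at 0.65) and 4 lower (the co-receptor Tgfbr3 at -0.83, Bmp6 at -0.76, Bambi at -0.67 and Id1 at -0.66). WNT signalling had 1 of 24 lower, the receptor Fzd4 (9399 and 10861 in control and 6772 and 5299 in smoke, -1.04), and 18 of 24 negative differences.

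Markers of vessel and muscle were lower at 4 weeks by modest amounts. Endothelial markers had 4 of 28 at least 1.5-fold lower, 0 higher and a median of -0.28 (-0.14 at 2 weeks). The tight junction protein Cldn5 read 19516 and 20982 in control and 11451 and 11702 in smoke (-0.84), the early-response gene Apold1 396 and 250.0 in air and 134 and 114 in smoke (-1.13), and the transcription factor Erg and the peptide Apln were at -0.61 and -0.60. The pan-endothelial marker Pecam1 was at -0.22. Smooth muscle and pericyte markers had 6 of 22 lower, 0 higher and a median of -0.40, against -0.03 at 2 weeks and -0.13 when the 2-week control pool was used. Tagln (transgelin) read 2043 and 2507 in control and 1586 and 1385 in smoke (-0.86), and smooth muscle myosin Myh11 5942 and 5212 in air and 5360.1 and 3259 in smoke (-0.68). For Myl9 the 4-week control pool (2674) was the one apart from the other pools (1670 to 1953). Fewer cells of a type cannot be told apart from less RNA per cell here either.

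Cardiac muscle markers moved with the vessel and muscle groups, and their part in those results was not tested. Cardiac markers had 5 of 25 lower and 0 higher (median -0.29). Against the 2-week control pool 1 was lower and 2 higher (median -0.06). The summed signal of the cardiac markers was 21628 and 27715 in the control pools and 18932 and 17588 in the smoke pools. Atrial myosin Myh6 read 3926 and 3427 in control and 2657 and 2242 in smoke (-0.61), and Tnnt2 7021 and 9534 in air and 5679 and 5337 in smoke (-0.84). Adipose markers had 4 of 15 lower and 0 higher (median -0.14, and 0.17 against the 2-week control pool), namely Car3, Tst, Cidec and Retn. The summed signal of the adipose markers was 202493 and 222823 in the control pools and 213818 and 233446 in the smoke pools, most of it from the desaturase Scd1. Without Scd1 it was 6052 and 11270.2 in the control pools and 8550.2 and 8679 in the smoke pools, so that at 2 weeks smoke was the higher and at 4 weeks the lower. Fibroblast and mesothelial markers had 1 of 19 higher (Plin2) and 2 lower, with 6 positive differences and a median of -0.16 (0.06 against the 2-week control pool). The lower ones were Lrrn4 at -0.91 and Upk3b at -0.75, and both were highest in the 4-week control pool.

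Neutrophil genes pointed both ways. Of 16 markers above the floor 3 were higher and 7 lower, and 8 lay below the floor. S100a9 read 531 and 1061 in control and 349 and 257 in smoke (-2.05), and S100a8 442 and 1286 in air and 513 and 406 in smoke (-1.66 at 4 weeks and 0.22 at 2 weeks). Retnlg was at -0.90 and Stfa2l1, which belongs to a family of near-identical stefins, at -1.71. In all of these the 4-week control pool was the highest. Cd177, a surface protein of neutrophils, went the other way, with 78.1 and 87.6 in control and 229 and 408 in smoke (2.22), as did Lcn2 and Mmp8. The summed signal of the 16 markers was 5696 and 10464 in the control pools and 16293 and 19699 in the smoke pools, most of the latter from Lcn2, which epithelium makes too. Without Lcn2 the other 15 summed to 3767 and 6943 in the control pools and 4662 and 4218 in the smoke pools, lower in smoke at 4 weeks. Between the control pools, 10 of the 16 were at least 1.5-fold higher at 4 weeks.

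Few lymphocyte markers passed 1.5-fold. Over all genes 4.04% were past it either way, so low counts in groups of this size say little. T and NK cell markers had 0 of 20 past 1.5-fold, with Cd4 nearest at 0.58. B and plasma cell markers had 1 of 19 higher, the IgE receptor Fcer2a (0.75), and 2 lower, Cd79b (-0.65) and Bank1 (-0.60). The eosinophil, basophil and mast cell group had 6 of 16 markers above the floor, with Ear6 (178 and 164 in air and 271 and 408 in smoke, 1.32) higher and Gata2 (-0.68) lower. Ear6 belongs to a family of close paralogs.

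**Figure D5:**
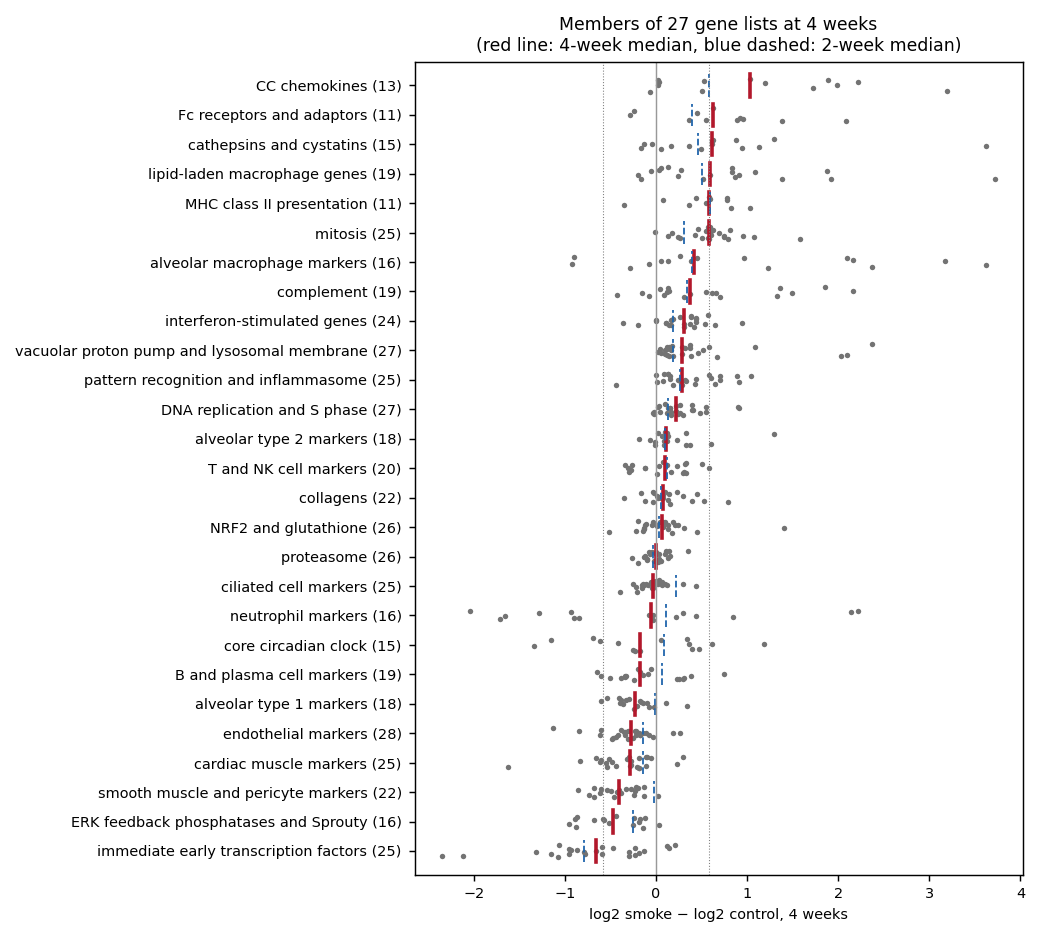
Members above the floor of 27 gene groups (rows, number of members in brackets) by their log2 smoke minus control difference at 4 weeks (x axis), 1 grey point per gene; the red bar is the group's 4-week median, the blue dashed bar its 2-week median, and dotted lines mark 1.5-fold. Medians run from 1.03 for CC chemokines to -0.65 for immediate early transcription factors, and the proteasome stays at 0.00 with no member past 1.5-fold.

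Housekeeping and stress groups differed little at 4 weeks. Cytosolic ribosomal proteins (14 genes), the proteasome (26), the mitochondrial respiratory chain (28), the unfolded protein response (20), heat shock chaperones (17) and sterol and fatty acid synthesis (20) each had 0 members past 1.5-fold in either direction. Their medians lay between -0.13 for sterol and fatty acid synthesis and 0.10 for the unfolded protein response. Over all genes 4.04% were past 1.5-fold either way, so that 0 in a group of this size says little. For heat shock chaperones the result depended on the control pool. Between the control pools 3 of 17 were higher at 4 weeks, and 3 were higher in smoke against the 2-week control pool (median 0.26). At 2 weeks 2 were lower, with a median of -0.30. Among p53 targets 2 of 20 were lower, Btg2 and the cell cycle inhibitor Cdkn1a (9186 and 19406 in control, 6106 and 11118 in smoke), which was highest in the 4-week control pool. In the BCL2 family the survival genes Bcl2a1a, Bcl2a1c and Bcl2a1d, near-identical copies that the probes may not separate, were 1.59, 1.00 and 0.95 higher, and Bcl2l1 was at -0.63.

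The 4-week difference departed from the 2-week one most in genes of several kinds, and no test of that departure was possible. Mmp12 was the only one of the 8 most positive departures whose difference grew in size, from 3.32 to 4.68. Nr4a1, Fosb, Cyp26b1 and Cyp1a1 were lower at both durations and less so at 4 weeks. Hspa1a, the inducible heat shock protein, read 368 and 814 in control and 95.2 and 884 in smoke (-1.95 at 2 weeks and 0.12 at 4 weeks), and the stress factor Atf3 857 and 313 in air and 195 and 255 in smoke (-2.14 and -0.30). The immunoglobulin joining chain Jchain read 133 and 58.6 in control and 66.5 and 76.5 in smoke, and the 2-week control pool was the high one. Among the 8 most negative departures, Reg3g, an antimicrobial lectin, read 148 and 434 in control and 670.4 and 492 in smoke (2.18 and 0.18), and the airway proteins Bpifa1 and Bpifb1 went from 1.63 and 1.72 to -0.18 and -0.00. For all 3 the 2-week control pool was the lowest of the 4 pools.

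Outside the protein-coding genes, the 3 largest higher differences were the immunoglobulin segments Ighv13-2 (112 and 118 in control, 76.4 and 774 in smoke, 2.72) and Igkv9-123 (2.27) and the small Cajal body RNA Scarna6 (843 and 223 in air and 878 and 920.1 in smoke, 2.04). Both segments were high only in the 4-week smoke pool, and Scarna6 was low only in the 4-week control pool. The 3 largest lower ones were Mir1938 (-1.46), Gm22090 (-1.29) and Gm23628 (-1.14). Of 584 long noncoding RNAs above the floor 6 were at least 1.5-fold higher (1.03%) and 2 lower (0.34%). Of 274 microRNA genes 18 were higher (6.57%) and 13 lower (4.7%). Over all genes the shares were 2.53% and 1.5%.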

How the data were processed

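Total lung RNA was labelled with biotin and hybridised to 4 arrays, 1 per group, per the labels. Linear intensities were deposited. The submitters' processing notes name RMA and, as software, Affymetrix Expression Console 1.4.1. Since RMA equalises the distributions of the arrays, it removes any shift that all genes of a pool share. Between 541 and 581 features per array exceed 65535, the largest value of a 16-bit scan. Neither genome build nor base is given in the sources used here.

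Of 65956 features, 30604 had 1 gene symbol in the platform annotation, 2146 several and 33206 none. Symbols were updated by Entrez ID with RefSeq GRCm38.p6 (22818 features matched, 827 symbols changed). For the 355 genes with over 1 feature, the one with the highest mean was used. Genes without a matched ID have no biotype. Among the genes above the floor, 301 have the same 4 values as some other gene. There were 0 columns of other samples.

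Log2 of the deposited values was taken with numpy 2.4.6 and pandas 2.3.3 (Python 3.11.15), and the cyclic loess alternative with limma 3.58.1 (R 4.3.3). The counting step was tested on simulated data. Genes named are the 20 protein-coding and 3 other genes furthest out in each direction, the 8 coding genes in each direction whose difference departed most between durations, and, per list, the members past 1.5-fold filled up to 4 plus the first 2 as listed. The members and lists were chosen with earlier results of these data known. Alternatives were another scaling, floor, added constant, feature rule, threshold and control pool.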

Additional observations from a re-analysis of the deposited data

Results flagged for a closer look

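Of the 272 genes lower at 4 weeks 5 were at least 1.5-fold higher at 2 weeks, with 1 smoke and 1 control pool at each duration, and the difference between durations was not tested. Nppa was -1.62 at 4 weeks and 1.04 at 2 weeks, with 568 and 2689 in the control pools and 1168 and 873 in the smoke pools. Tst, a mitochondrial sulfurtransferase, was -1.03 and 0.86 (265 and 1123 in control, 480.0 and 551 in smoke), and Car3, the carbonic anhydrase of fat and muscle, -1.004 and 0.93 (1256 and 3171 in air and 2389.8 and 1581 in smoke). Cyp2e1, which oxidises ethanol and small solvents, was -0.83 and 0.59, and the small RNA gene Gm22090 -1.29 and 0.77. In all 5 the 4-week control pool was the highest and the 2-week control pool the lowest of the 4 pools. Of the 458 genes higher at 4 weeks 10 were at least 1.5-fold lower at 2 weeks, 0 of them annotated as protein coding and 3 of them microRNA genes, with differences of 0.59 to 1.11 at 4 weeks and -1.13 to -0.66 at 2 weeks. In 9 of these 10 the 4-week control pool was at least 1.5-fold below the 2-week one.

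Features without a single gene symbol were not used in any comparison. Of 15750 such features above the floor, 387 were at least 1.5-fold higher and 547 lower at 4 weeks, and 7 were at least 4-fold higher, up to 6.10-fold. In 176 of the higher ones both smoke pools lay above both control pools. The control pools differed at least 1.5-fold in 1023 of these features.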

How the results depend on the processing

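No paired analysis was possible because each group is 1 pool and the labels carry no replicate numbers. Most list medians at 4 weeks (576 values over 8 alternatives, against 15 that did not) and gene differences (3214 against 242) stayed within 0.276, the spread between the control pools. Many list medians are smaller than that, so a median could change sign and still count as unchanged. With the 2-week control pool this held, among others, for core clock genes (-0.18 to 0.04), cytochromes P450 (-0.23 to 0.04) and carbonyl and phase II enzymes (-0.12 to 0.01). The counts of 458 higher and 272 lower genes became 830 and 567 with the 2-week control pool, 114 and 44 at 2-fold, and 177 and 91 if the linear values have base e, an alternative added after the data were seen; the higher count was 286 with the 60th percentile floor and 293 for coding genes alone. With the 2-week control pool the median was 0.17 for adipose, 0.78 for complement, 0.22 for eosinophil, basophil and mast cell, 1.29 for epithelial antimicrobial, 0.15 for glucocorticoid, 0.65 for hydrolase, -0.21 for resistin-like and chitinase-like and -0.13 for smooth muscle genes, and with the mean of both control pools 0.76 for the antimicrobial ones. With the 60th percentile floor it was 1.73 for CC chemokines, 0.92 for Fc receptors, -1.10 for neutrophil genes and, reversed, 0.71 for the resistin-like group, which had 3 members above the floor; with no floor it was 0.51 for CC chemokines and -0.23 for the resistin-like group (-0.66 as reported, with Retnla higher and Retnlg and Retn lower). Of the 272 lower genes 22 were not lower against the 2-week control pool, and of the 458 higher ones 29 were not higher. Of the 22, the 11 followed one by one were Tst at 1.06 (0.0157 against the mean of both), Nppa at 0.62, Mfap2 at 0.35, Car3 at 0.33, Gm22090 at 0.30, Cyp2e1 at 0.29, Cdkn1a at 0.28, Muc16 at 0.20, Upk3b at 0.0727, Per1 at 0.0712 and Cyp4a12b at 0.0415; the cause was not tested. With 1 pool per group and no detection value per feature, differences of genes near the floor cannot be told from noise.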

Other observations

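Some genes outside the lists were named after their values were seen, so their counts describe a choice and nothing more. Paired and inhibitory receptors of myeloid cells were among them: Lilrb4a read 3673 and 4719.7 in the control pools and 12458 and 22126 in the smoke pools (2.23), and its neighbour in the family Lilr4b 1039.6 and 1380.1 in air and 3218 and 5412 in smoke (1.97). The CD200 receptor genes Cd200r1, Cd200r2 and Cd200r4 were 1.06, 1.83 and 1.59 higher, and Havcr2 (TIM-3), Cd33, Cd300lf, Lilra5, Pirb and Lair1 1.20, 0.92, 0.79, 0.73, 0.65 and 0.64. For all 11 the 4-week smoke pool was the highest of the 4 pools. Some of these are close paralogs.

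Subunits of NADPH oxidases, which make superoxide, were higher in the same pool. Cybb, the catalytic chain of phagocytes, read 4867 and 4971 in control and 8483 and 11961 in smoke (1.27), with its partners Cyba at 0.67 and Ncf1 at 0.71. The epithelial organiser Noxo1 and activator Noxa1 were 0.91 and 0.86 higher, at signals of 156 and 95.6 in the 4-week smoke pool. Of the kynurenine pathway of tryptophan breakdown, Kynu read 105 and 80.5 in air and 200.4 and 213 in smoke (1.40), while for Kmo the 2-week smoke pool (249) was above the 4-week one (205). Coagulation factor VII (F7) read 698 and 828 in control and 1803 and 2300.3 in smoke (1.47), and F10 and Proz were 0.68 and 0.85 higher. The MS4A genes Ms4a6d, Ms4a14 and Ms4a8a were 1.46, 1.38 and 1.07 higher.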
